A study of Mus musculus with 9 samples.

Results

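The endoplasmic reticulum (ER) stress response was followed across 35 genes in the mouse hippocampus, out of 57010 genes in the deposited table. The genes were taken by symbol, as sensors, transcription factors, chaperones, enzymes and targets of the unfolded protein response. All 35 had a row, and all 35 passed the filter on low counts, so each was tested. Ddit3 has a second row (ENSMUSG00000116429) that reached an expected count of at most 1.59 in any library and was not tested.

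C57BL/6J mice gave the hippocampal RNA, and the 9 libraries fall into 3 groups of 3. Sham mice had the L5 spinal nerve exposed without a ligature and then received solvent. In SNL mice the spinal nerve was tied, which models neuropathic pain, and solvent followed. CBD mice were ligated as well and received cannabidiol, a cannabis compound that does not intoxicate, by intraperitoneal injection (5 mg/kg, 15 days). The labels give no age, no sex and no name for the solvent, and no group without surgery or with cannabidiol alone enters here. Whether each library stands for its own animal is not stated, so p-values reflect only how far these samples spread, and that spread may be technical.

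Library totals, in expected counts, lay between 16972620 and 20470546. All 10 markers of hippocampal pyramidal and granule neurons were detected in every library. Levels are given in CPM, a gene's counts relative to a library size scaled by TMM (trimmed mean of M-values) and not to the gene's length, so they compare libraries and not genes. Markers of neighbouring regions differed between libraries. Pmch, a hypothalamic neuropeptide gene, reached 200.4 CPM in SNL 1, 145.7 in CBD 1 and 43.9 in SNL 2. The remaining 6 libraries had 0.797 CPM of it at most. Counts over the genes followed, and the differences of some named genes, are therefore also given without those 3 libraries. Such values are not given for the other named genes. Among these are Xbp1, Manf, Sdf2l1, Pdia6 and Sel1l, and Hspa5 in SNL against Sham, so their dependence on those libraries is not shown.

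The ER folds secreted and membrane proteins. When unfolded proteins gather there, 3 membrane sensors signal to the nucleus. Ern1 (IRE1) splices the messenger RNA of Xbp1, Atf6 is cut to release a transcription factor, and Eif2ak3 (PERK) phosphorylates eIF2alpha, which slows translation in general while raising that of Atf4. XBP1 and ATF6 act on genes for chaperones, oxidative folding and degradation, and ATF4 acts on genes for amino acid supply and on Ddit3, which encodes the transcription factor CHOP. In neurons the same machinery also serves the normal traffic of receptors and secreted peptides. Counts per gene do not show Xbp1 splicing, Atf6 cleavage or eIF2alpha phosphorylation.

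Promoter windows show which of the genes carry the sequence elements through which this response is known to act. Each window is RefSeq sequence of the build GRCm38.p6, 250 bases before to 50 bases after a gene's start, matched by symbol. Of the 35 genes, 31 had a window, and Manf, Atf6, Hyou1 and Derl1 had none. The ER stress element, which ATF6 binds with NF-Y, was searched on both strands as CCAAT, any 9 bases and CCACG. It was found for 9 of the 31 genes (29.0%): Hspa5, Hsp90b1, Pdia6, Calr, Canx, Ero1b, Dnajc3, Creld2 and Syvn1. Over all 27025 symbols with a window, 0.137% held it. The genes on the list were drawn up as members of this response, so the contrast describes the list and is no test. The stretches below belong to the 6 of these genes with the smallest p in SNL against Sham. Each runs 5′ to 3′ on the gene's strand and lies before the start. Capitals mark the fixed letters of the element.
Hspa5: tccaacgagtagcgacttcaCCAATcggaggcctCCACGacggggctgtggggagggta
Pdia6: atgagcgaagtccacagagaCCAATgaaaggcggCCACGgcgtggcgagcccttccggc
Ero1b: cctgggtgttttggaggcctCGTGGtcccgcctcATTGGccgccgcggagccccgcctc
Hsp90b1: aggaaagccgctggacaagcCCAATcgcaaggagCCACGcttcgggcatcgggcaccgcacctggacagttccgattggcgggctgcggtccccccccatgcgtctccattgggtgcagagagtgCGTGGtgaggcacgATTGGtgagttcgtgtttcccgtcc
Calr: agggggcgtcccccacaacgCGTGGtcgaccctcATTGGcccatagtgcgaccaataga
Canx: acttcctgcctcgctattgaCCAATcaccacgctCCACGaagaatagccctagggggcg
They lie at chr2:34772005-34772063 on the plus strand for Hspa5, chr12:17266471-17266529 (plus) for Pdia6 and chr13:12565662-12565720 (plus) for Ero1b. The minus-strand stretches are chr10:86705513-86705676 for Hsp90b1, chr8:84847055-84847113 for Calr and chr11:50325780-50325838 for Canx. Hspa5, Pdia6 and Canx hold the element as searched, Ero1b and Calr hold its reverse complement, and Hsp90b1 holds 1 of each.

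A different element marks the genes downstream of ATF4. The C/EBP-ATF response element was searched as TGATGNAA on both strands and was found for 5 of the 31 genes (16.1%), against 4.51% of all symbols. These were Asns, Atf3, Chac1, Trib3 and Herpud1, and that of Trib3 lay after the start. The stretches of Atf3 (chr1:191183416-191183463, minus), Asns (chr6:7693210-7693252, minus) and Chac1 (chr2:119351029-119351076, plus) are shown because they stand for the ATF4 branch. Capitals mark the fixed letters.
Atf3: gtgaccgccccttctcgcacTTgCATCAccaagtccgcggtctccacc
Asns: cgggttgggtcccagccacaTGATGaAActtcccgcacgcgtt
Chac1: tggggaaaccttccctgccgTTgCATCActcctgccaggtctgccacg
The second ER stress element, ATTGG, any 1 base and CCACG, was found on either strand for Herpud1 before the start and for Dnajb11 after it, against 0.0444% of all symbols. Of the 31 genes, 1 (Herpud1) held both an ER stress element and a C/EBP-ATF element. Its stretch, chr8:94386357-94386407 on the plus strand, shows the second form in capitals.
Herpud1: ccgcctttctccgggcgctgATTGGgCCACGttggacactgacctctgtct
No window of the 31 genes held the UPR element TGACGTGG, which 0.714% of all symbols did.

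SNL set against Sham shows the libraries after nerve ligation beside those after sham surgery. Genes for ER chaperones and disulfide enzymes, and Ddit3, Xbp1 and Atf4, stood higher in ligated mice, while genes for the sensors and for targets of ATF4 were not higher as groups. All 12 chaperone genes had a log2 fold change above 0, from 0.06 to 0.58, as did all 5 disulfide exchange genes, from 0.20 to 0.46. No single gene passed the test across all genes. By edgeR's quasi-likelihood test with Benjamini-Hochberg adjustment over 17967 genes, 0 of the 35 had an adjusted p under 0.05, where 0% of all genes did. The lowest adjusted p was 0.193 for Ddit3.

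Over the 35 genes, 27 had a log2 fold change above 0, where 51.6% of all genes did, and the median was 0.20 against 0.01 over all genes. At an unadjusted p under 0.05, 14 were higher, where 5.83% of all genes were, and 1 was lower, Atf6, where 7.96% of all genes were. Every SNL library lay above every Sham library for 14 of the 35, where 7.94% of all genes showed this. Every SNL library lay below for 2, Atf6 and Ern1, where 9.81% of all genes did. The DESeq2 Wald test gave an adjusted p under 0.05 to 4 of the 35, Hspa5, Ddit3, Manf and Pdia6, where 2.34% of the genes it adjusted passed. By limma voom with sample weights 0 of the 35 passed, where 0.00557% of all genes did.

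Ddit3 (ENSMUSG00000025408), the gene for the pro-apoptotic factor CHOP, was at 15.3, 14.6 and 16.1 CPM in Sham 1 to 3 and at 23.0, 22.3 and 23.9 CPM in SNL 1 to 3. In CBD 1 to 3 it was at 17.3, 18.9 and 17.7 CPM, between the other groups and touching neither. The log2 fold change for SNL against Sham was 0.59 (SE 0.10). It ran from 0.55 to 0.63 when each of the 9 libraries was left out in turn. Without the libraries with Pmch, where SNL 3 stands alone for its group, it was 0.65 (SE 0.16).

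Xbp1 (ENSMUSG00000020484), whose product drives chaperone and degradation genes, was at 55.9, 56.6 and 58.2 CPM in Sham, 72.0, 69.8 and 69.3 in SNL, and 72.3, 62.6 and 61.6 in CBD. Both ligated groups lay wholly above Sham, and CBD 1 stood apart from the other CBD libraries at the SNL level. The difference SNL against Sham was 0.31 on the log2 scale (SE 0.09, adjusted p 0.243 by edgeR). Atf4 (ENSMUSG00000042406) was at 106.7, 101.6 and 102.6 CPM in Sham, 120.6, 140.0 and 111.1 in SNL, and 107.0, 100.1 and 92.8 in CBD. The SNL libraries lay above all others, with a difference of 0.26 from Sham (SE 0.11). It was 0.16 (SE 0.10) without SNL 2 and 0.11 (SE 0.14) without the libraries with Pmch. Atf3 (ENSMUSG00000026628), a stress-induced partner of these factors, rested on 11 to 32 counts a library. It was at 0.918, 0.708 and 0.816 CPM in Sham, 0.642, 1.68 and 1.17 in SNL, and 1.52, 0.981 and 0.637 in CBD, and its groups overlapped.

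**Figure D1:**
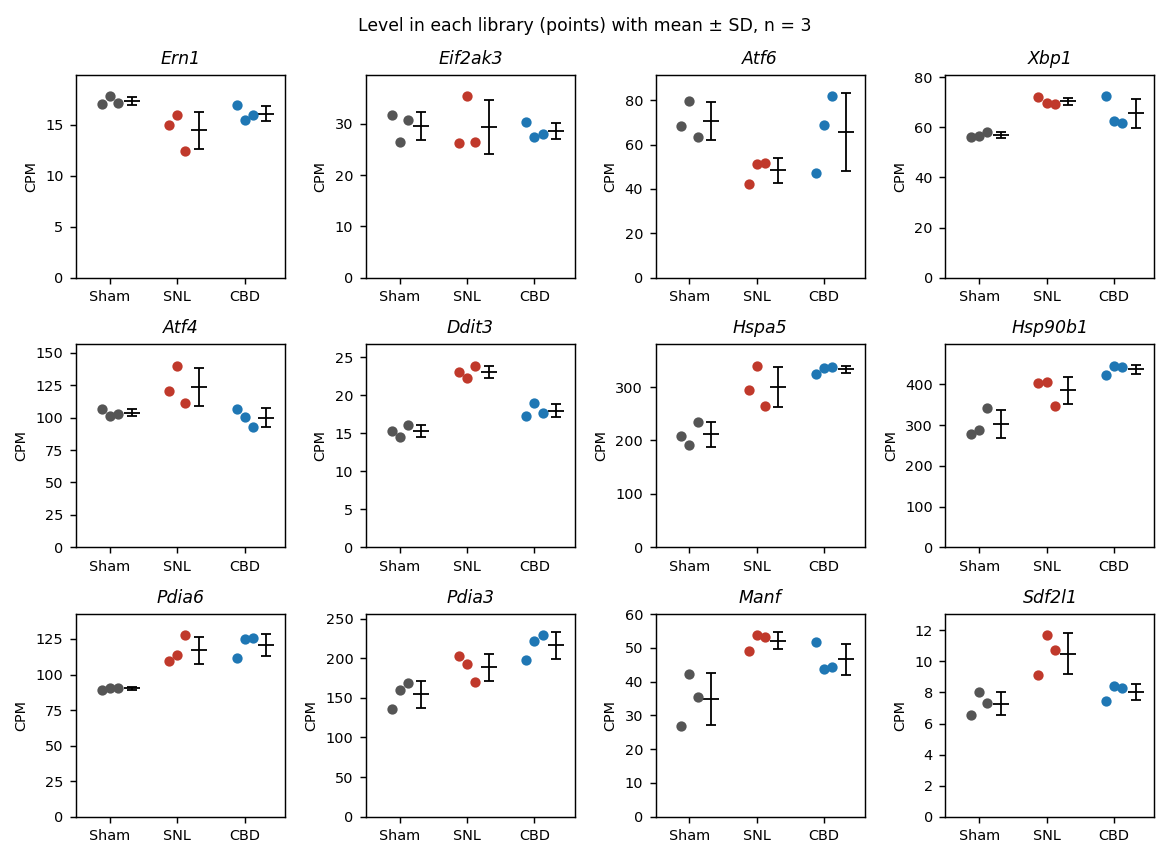
Level of 12 genes in each library, in CPM on axes that start at 0, with the mean and SD of the 3 libraries of a group beside the points. Ddit3, Xbp1, Hspa5, Hsp90b1, Pdia6, Pdia3 and Manf lie higher in every SNL library than in every Sham library, while Atf6 and Ern1 lie lower.

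The sensor genes did not share this direction. Atf6 (ENSMUSG00000026663) was at 68.2, 79.8 and 63.2 CPM in Sham and at 42.0, 51.4 and 51.6 in SNL, all lower. Its log2 fold change was -0.54 (SE 0.19), or -0.44 (SE 0.19) without the libraries with Pmch. In CBD the level of Atf6 spread from 47.0 in CBD 1 to 68.7 in CBD 2 and 81.7 in CBD 3, across the range of both other groups. Ern1 (ENSMUSG00000020715) was at 17.1, 17.8 and 17.2 CPM in Sham, 15.0, 15.9 and 12.4 in SNL, and 16.9, 15.5 and 15.9 in CBD. Its SNL libraries were all below Sham, by -0.26 (SE 0.12). The difference was -0.17 (SE 0.12) without SNL 3 and -0.47 (SE 0.17) without the libraries with Pmch. Eif2ak3 (ENSMUSG00000031668) was at 31.7, 26.5 and 30.7 CPM in Sham, 26.3, 35.4 and 26.5 in SNL, and 30.4, 27.5 and 28.0 in CBD. These ranges overlapped, and the difference SNL against Sham was -0.01 (SE 0.14).

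Among the chaperones, Hspa5 (ENSMUSG00000026864), which encodes BiP, the main ER chaperone and a brake on the sensors, was at 207.4, 190.5 and 235.4 CPM in Sham. It was at 294.8, 339.7 and 265.2 CPM in SNL and 324.8, 336.0 and 338.3 in CBD. Every library of a ligated mouse lay above every Sham library, and the difference SNL against Sham was 0.51 (SE 0.12, adjusted p 0.211 by edgeR). Hsp90b1 (ENSMUSG00000020048), the ER form of HSP90, was at 279.0, 288.2 and 341.7 CPM in Sham, 403.8, 405.5 and 347.3 in SNL, and 423.9, 445.7 and 442.0 in CBD. The lowest SNL library was close to the highest Sham library, with no overlap, and the difference was 0.35 (SE 0.11), or 0.21 (SE 0.17) without the libraries with Pmch.

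Manf (ENSMUSG00000032575), a secreted neurotrophic factor kept in the ER, was at 26.9, 42.3 and 35.4 CPM in Sham, 49.2, 53.7 and 53.3 in SNL, and 51.9, 43.6 and 44.2 in CBD. Its difference SNL against Sham was 0.58 (SE 0.15), and the Sham libraries spread more widely than the SNL libraries. Sdf2l1 (ENSMUSG00000022769), a component of the BiP complex, was at 6.53, 8.04 and 7.29 CPM in Sham, 9.10, 11.7 and 10.7 in SNL, and 7.47, 8.41 and 8.28 in CBD. Only the SNL libraries stood apart, by 0.53 from Sham (SE 0.16). Dnajb9, a BiP co-chaperone, Dnajb11, another, and the lectin chaperone Calr also had an unadjusted p under 0.05, at 0.45, 0.29 and 0.26. Canx, Creld2, Dnajc3, Hyou1 and Dnajc10 did not, with values from 0.06 to 0.21.

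Disulfide exchange genes, which make and reshuffle disulfide bonds in the ER, had 4 of 5 members at an unadjusted p under 0.05. Pdia6 (ENSMUSG00000020571) was at 89.2, 90.7 and 90.6 CPM in Sham, 109.2, 114.1 and 127.5 in SNL, and 111.8, 124.8 and 125.7 in CBD. The Sham libraries lay within a narrow band below all others, and the difference SNL against Sham was 0.37 (SE 0.10). Ero1b, the oxidase that recharges these isomerases, Pdia3 and Pdia4 differed by 0.46, 0.28 and 0.22. P4hb differed by 0.20, with SNL 3 within the Sham range.

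The 7 genes for degradation and the translocon were near the level of Sham. They ranged from -0.15 to 0.21 (median 0.09), and 0 had an unadjusted p under 0.05 or groups that did not overlap. They include Sel1l and Syvn1, the core of the ubiquitin ligase that retires misfolded proteins, and Herpud1, Edem1, Derl1, Derl2 and Sec61b. Of the 4 targets of ATF4 and CHOP 0 had an unadjusted p under 0.05. Asns, asparagine synthetase, differed by -0.02 (SE 0.09), Chac1, which degrades glutathione, by 0.04 (SE 0.20), and Ppp1r15a (GADD34), which reverses eIF2alpha phosphorylation, by -0.13 (SE 0.14). Trib3, a pseudokinase that binds ATF4, rested on 7 to 15 counts a library and its difference of -0.54 (SE 0.40) is not determined at this depth.

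**Figure D2:**
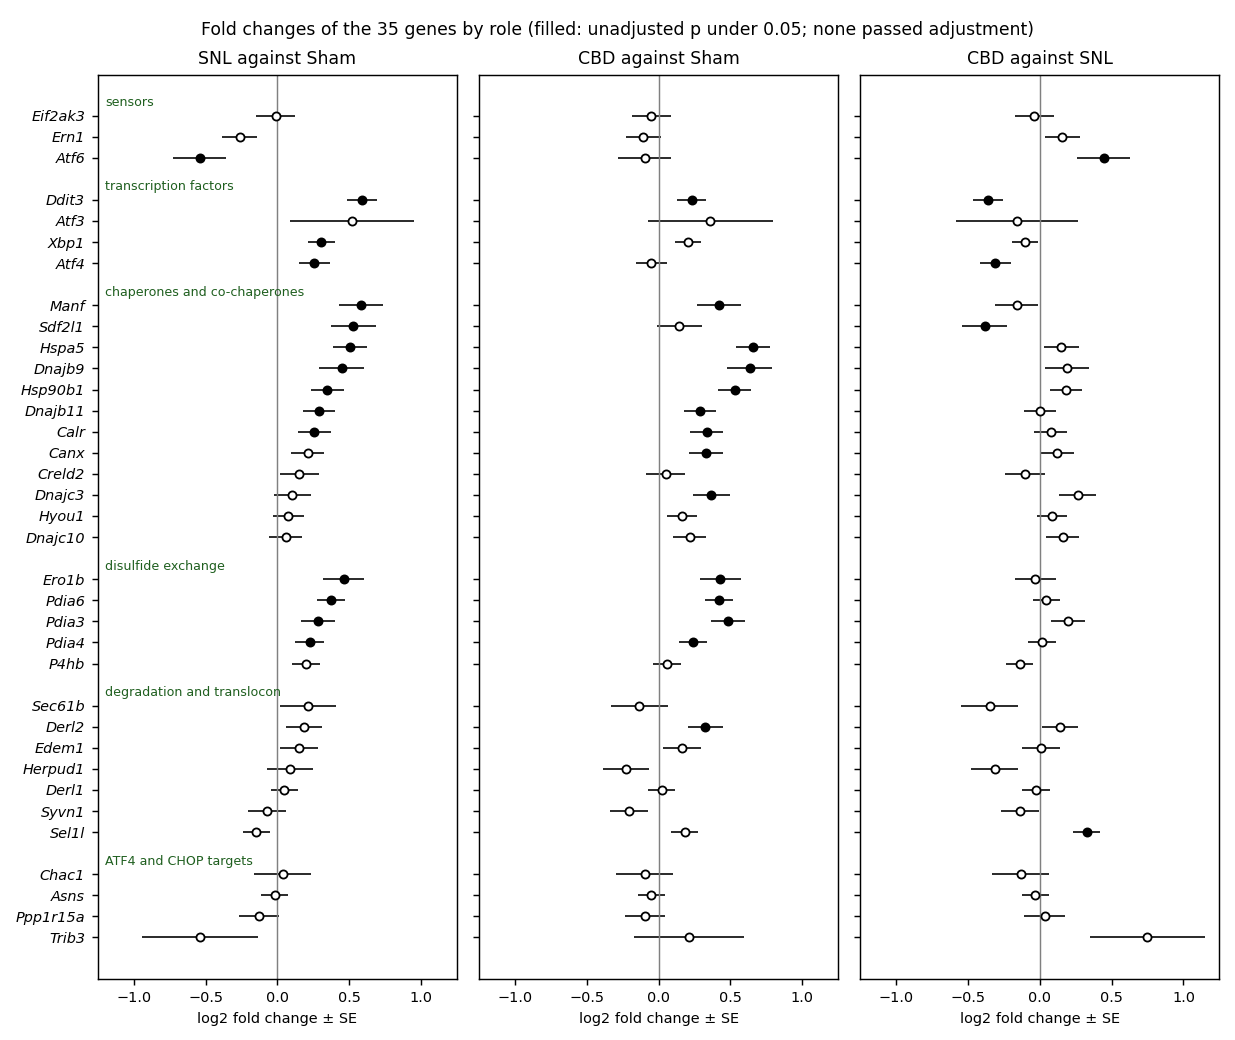
Log2 fold change with its SE for the 35 genes in the 3 comparisons, grouped by role. Filled points had an unadjusted p under 0.05, and 0 had an adjusted p under 0.05. In the first panel the chaperone and disulfide exchange genes all lie right of 0, and the degradation genes and ATF4 targets scatter around 0. Each pair of panels shares the libraries of 1 group.

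Leaving out 1 library changed these counts. Without Sham 1, the genes at an unadjusted p under 0.05 numbered 9 in place of 15, of which 8 were higher. Without the 3 libraries that hold Pmch, SNL 3 was the only SNL library and is assumed to vary like the other groups. There the median was 0.11, 24 of 35 genes were above 0, and 7 had an unadjusted p under 0.05, 5 of them higher. In SNL 3 itself, 16 of the 35 genes lay above every Sham library, where 25.6% of all genes did, and 5 lay below, where 25.7% did.

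Markers of cell types and regions differed between SNL and Sham too, some higher and some lower. The summed level of 12 endothelial and pericyte markers was 547.7 to 643.5 CPM in Sham, 698.5 to 897.8 in SNL and 665.8 to 684.5 in CBD. That of 10 thalamus and habenula markers was 380.4 to 623.0, 664.7 to 1536 and 625.5 to 817.7 CPM. Both sums were higher in every library of a ligated mouse than in every Sham library. In SNL against Sham 11 of the 12 endothelial and pericyte markers were above 0 (median 0.52). Thalamus and habenula markers were 10 of 10 above 0 (median 1.08). Of 9 hypothalamic markers tested, 9 were above 0 in SNL against Sham (median 2.56). Their sums were 8.46 to 11.0 CPM in Sham and 12.4 to 318.2 in SNL. The sum of the 10 hippocampal neuron markers was 1112 to 1872 CPM in Sham and 735.6 to 1086 in SNL, lower in every SNL library. Oligodendrocyte markers were 8 of 8 above 0 (median 0.39), with sums of 8629 to 11719 CPM in Sham and 10488 to 14868 in SNL that overlapped. The sum of 8 astrocyte markers was 4623 to 5217 CPM in Sham and 4054 to 4534 in SNL, lower in every SNL library, while 5 of the 8 were above 0. That of 8 microglia markers was 273.4 to 342.6 and 248.0 to 324.7 CPM, with 3 of 8 above 0. Markers of choroid plexus, a secretory epithelium, summed to 147.3 to 1341 CPM in Sham, 272.8 to 2260 in SNL and 1184 to 1927 in CBD, and overlapped. Of all these markers, 0 were at 0 in every library, and Hcrt and Oxt were at 0 in some. Mitochondrial genes took 3.20% to 4.56% of the counts in Sham, 4.76% to 6.29% in SNL and 4.52% to 6.65% in CBD. The part of the markers and of this share in the result was not tested, and in bulk tissue fewer cells of a type and less RNA per cell cannot be told apart.

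CBD set against SNL compares cannabidiol with solvent in ligated mice only, since no group with cannabidiol alone enters here. Of the 35 genes, 19 were above 0 (49.9% of all genes were) and 16 below, with a median of 0.01. By sign alone, 9 of the 12 chaperone genes were above 0 and all 4 transcription factor genes below. At an unadjusted p under 0.05, 0 of the 12 were higher and 1 was lower, and 2 of the 4 were lower. Atf3, with few counts, was at -0.16 (SE 0.42). The number of the 35 genes above 0 was 23 without SNL 2, and 16 without SNL 1 or without SNL 3. With no overlap between the groups, Ddit3, Atf4 and Sdf2l1 were lower with cannabidiol, and Hsp90b1, Sel1l and Trib3 were higher. As counts these are near the shares of all genes, given below. By edgeR, 0 of the 35 had an adjusted p under 0.05, where 0% of all genes did, and the lowest was 0.306. At an unadjusted p under 0.05, 2 were higher, where 6.5% of all genes were, and 3 were lower, where 7.2% were. Every CBD library lay above every SNL library for 3 genes, Hsp90b1, Sel1l and Trib3, where 9.18% of all genes did. It lay below for 3, Ddit3, Atf4 and Sdf2l1, where 10.1% did. These shares are near those of all genes. The DESeq2 Wald test passed 0 of the 35, where 1.3% of the genes it adjusted passed, and limma voom passed 2, Sel1l and Atf6, where 6.3% of all genes passed. The SNL libraries also serve in SNL against Sham, so the values of these comparisons are not independent.

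Ddit3 was lower in CBD than in SNL by -0.36 on the log2 scale (SE 0.10), at levels given above of 17.3 to 18.9 CPM against 22.3 to 23.9. Atf4 was lower by -0.31 (SE 0.11), with its highest CBD library at 107.0 CPM and its lowest SNL library at 111.1. Sdf2l1 was lower by -0.38 (SE 0.16). With offsets for transcript GC content and length these differences were -0.19 (SE 0.10) for Ddit3, -0.19 (SE 0.09) for Atf4 and -0.19 (SE 0.16) for Sdf2l1. Without the libraries with Pmch that of Atf4 was -0.20 (SE 0.15). The 4 targets of ATF4 and CHOP ranged from -0.13 for Chac1 to 0.75 for Trib3 (SE 0.40), and 0 had an unadjusted p under 0.05.

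Sel1l (ENSMUSG00000020964), the adaptor of the HRD1 ligase, was at 167.1, 162.1 and 181.0 CPM in Sham, 149.3, 163.2 and 148.6 in SNL, and 187.4, 189.2 and 201.6 in CBD. The CBD libraries were above all others, by 0.33 from SNL (SE 0.09). Syvn1, which encodes the ligase itself, differed by -0.14 (SE 0.13). Atf6 was higher in CBD by 0.44 (SE 0.19), although CBD 1 lay within the SNL range. That difference was 0.21 (SE 0.18) with the GC content and length offsets and 0.26 (SE 0.18) without CBD 3. Dnajc3, a co-chaperone that restrains PERK, was at 50.3, 56.1 and 63.6 CPM in Sham, 57.7, 71.6 and 53.2 in SNL, and 72.7, 70.2 and 76.3 in CBD, and its difference from SNL was 0.26 (SE 0.13). CBD 2 lay below SNL 2 by a small margin. The Dnajc3 difference was 0.03 (SE 0.11) with those offsets, 0.40 (SE 0.12) without SNL 2, 0.18 (SE 0.14) without SNL 3 and 0.46 (SE 0.18) without the libraries with Pmch.

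The main chaperones stood at or above the SNL level with cannabidiol. Hspa5 differed from SNL by 0.15 (SE 0.12), Hsp90b1 by 0.18 (SE 0.11), Pdia3 by 0.20 (SE 0.12) and Pdia6 by 0.05 (SE 0.10). The Hspa5 difference was 0.25 without SNL 2 and 0.07 without SNL 3, and that of Hsp90b1 was 0.11 without SNL 3 and 0.07 with GC content and length offsets. Without the libraries with Pmch they were 0.35 (SE 0.18) for both. The differences of these 4 genes missed the threshold in the fit of all libraries, which does not show that the groups were alike. The number of genes at an unadjusted p under 0.05 was 5, and it was 3 without SNL 2 or without CBD 2 and 2 without CBD 3. It was 2 with offsets for transcript GC content and length, where none was lower. Without the 3 libraries with Pmch it was 4, all higher in CBD, with SNL 3 as the only SNL library.

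Markers of other cells and regions differed between CBD and SNL as well. Oligodendrocyte markers were 8 of 8 below 0 (median -0.49), with sums of 8222 to 9630 CPM in CBD, lower in every CBD library than in every SNL library. Thalamus and habenula markers were 10 of 10 below 0 (median -0.37), endothelial and pericyte markers 11 of 12 (median -0.24) and microglia markers 7 of 8 (median -0.29). Hippocampal neuron markers were 8 of 10 above 0 (median 0.26), with sums of 670.2 to 1563 CPM in CBD. Choroid plexus markers were 9 of 10 above 0 (median 0.40), hypothalamic markers 5 of 9 and astrocyte markers 4 of 8. Their part in the differences of Ddit3, Atf4, Sdf2l1 and Sel1l was not tested.

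**Figure D3:**
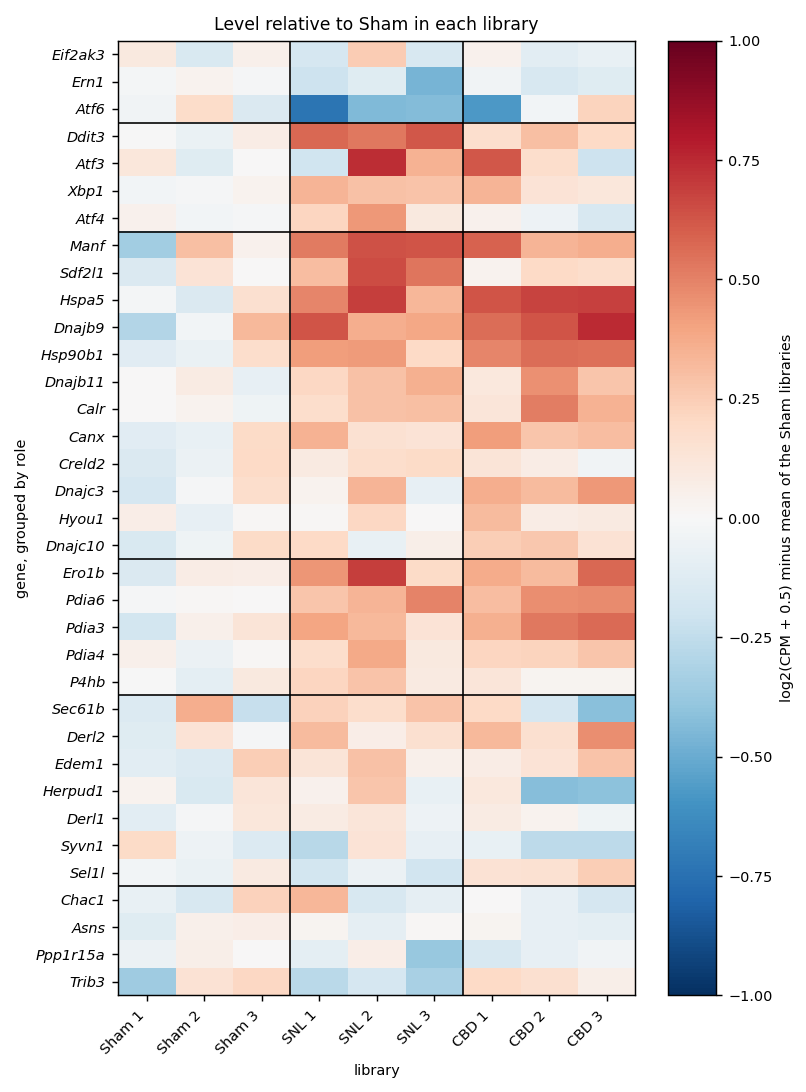
Level of each of the 35 genes (rows, grouped by role) in each of the 9 libraries (columns), as log2(CPM + 0.5) minus the mean of the Sham libraries. The chaperone and disulfide exchange rows are red in most SNL and CBD libraries, the Atf6 row is blue in SNL and in CBD 1, and Ddit3 is most intense in SNL.

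CBD set against Sham differs in both ligation and drug, and it uses the same Sham libraries as SNL against Sham. The chaperones and disulfide enzymes were higher here too, led by Hspa5, Dnajb9 and Hsp90b1, while Atf4 and the sensors were not. Over the 35 genes, 25 were above 0, where 50.1% of all genes were, with a median of 0.20 against 0.00 over all genes. By edgeR 0 of the 35 had an adjusted p under 0.05, where 0% of all genes did, and the lowest was 0.213. At an unadjusted p under 0.05, 14 were higher, where 7.41% of all genes were, and 0 were lower, where 8.87% were. Every CBD library lay above every Sham library for 17 genes, where 10.6% of all genes did, and below for 1, Ern1, where 11.1% did. The DESeq2 Wald test passed 5 of the 35, Hspa5, Hsp90b1, Pdia3, Pdia6 and Dnajb9, where 3.07% of the genes it adjusted passed. Limma voom passed 7, the same 5 with Calr and Dnajb11, where 5.85% of all genes passed.

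Hspa5 differed from Sham by 0.66 on the log2 scale (SE 0.12), and Hsp90b1 by 0.53 (SE 0.11), or 0.33 (SE 0.10) with GC content and length offsets. Dnajb9 (ENSMUSG00000014905), an ERdj4 co-chaperone that XBP1 induces, was at 22.4, 27.1 and 34.7 CPM in Sham, 43.0, 35.7 and 36.3 in SNL, and 41.0, 43.1 and 46.7 in CBD. Its difference CBD against Sham was 0.63 (SE 0.15), and the Sham libraries were all lowest. Pdia3 (ENSMUSG00000027248), the isomerase that works with calnexin and calreticulin, was at 135.8, 159.8 and 168.2 CPM in Sham, 202.3, 193.3 and 169.5 in SNL, and 197.5, 222.3 and 228.8 in CBD. The difference CBD against Sham was 0.48 (SE 0.12), and SNL 3 was barely above the highest Sham library.

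Pdia6 differed by 0.42 (SE 0.10) between CBD and Sham. Ero1b (ENSMUSG00000057069) was at 21.0, 24.6 and 24.4 CPM in Sham, 31.9, 37.9 and 26.6 in SNL, and 30.3, 29.1 and 34.9 in CBD, all ligated libraries being higher, with a difference of 0.43 (SE 0.14), or 0.26 (SE 0.13) with the same offsets. Of the 12 chaperone genes 8 had an unadjusted p under 0.05, all higher, as did 4 of the 5 disulfide exchange genes. Of the 7 degradation genes it was 1, Derl2 (0.32, SE 0.12), a channel component for retrotranslocation. Among the transcription factors it was Ddit3 (0.23, SE 0.10, or 0.39, SE 0.10, with the offsets), while Atf4 differed by -0.05 (SE 0.11).

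Pmch was above 10 CPM in 3 libraries, SNL 1, SNL 2 and CBD 1. CBD 2 and CBD 3 had 0.103 and 0.232 CPM of Pmch. Each of these 2 lay above every Sham library for 20 of the 35 genes, where 27% and 30% of all genes did. Without the 3 libraries, 10 genes were higher at an unadjusted p under 0.05 and 1 was lower. Without Sham 1 the number at an unadjusted p under 0.05 was 8. Region and cell markers differed too. Hippocampal neuron markers were 9 of 10 below 0 (median -0.61) and microglia markers 7 of 8 (median -0.37). Above 0 were 10 of 10 thalamus and habenula markers (median 0.56) and 9 of 9 hypothalamic markers (median 2.91). So were 10 of 10 choroid plexus (median 0.61) and 10 of 12 endothelial and pericyte markers (median 0.23). Oligodendrocyte markers were 6 of 8 below 0 and astrocyte markers 5 of 8. The markers' part in the result was not tested.

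Genes grouped by promoter window were then set side by side. The 9 genes with the ER stress element had a median log2 fold change of 0.26 in SNL against Sham, with 8 above 0. At an unadjusted p under 0.05, 5 of them were higher, where 5.83% of all genes were. In CBD against Sham the median was 0.37, with 7 higher at an unadjusted p under 0.05, where 7.41% of all genes were. Syvn1 was the 1 of these genes below 0 in both. The 22 genes that had a window without this element had medians of 0.19 and 0.17, with 16 and 14 above 0. At an unadjusted p under 0.05, 8 and 6 of the 22 were higher, so genes without a match in this window also stood higher. The 5 genes with the C/EBP-ATF element had medians of 0.04 and -0.05, and 0 of them had an unadjusted p under 0.05 in any of the 3 comparisons. Outside the list, 13 other tested genes held the ER stress element. Their medians were 0.13 and 0.01, with 8 and 7 of 13 above 0. A match is a description of the letters, not a bound site.

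**Figure D4:**
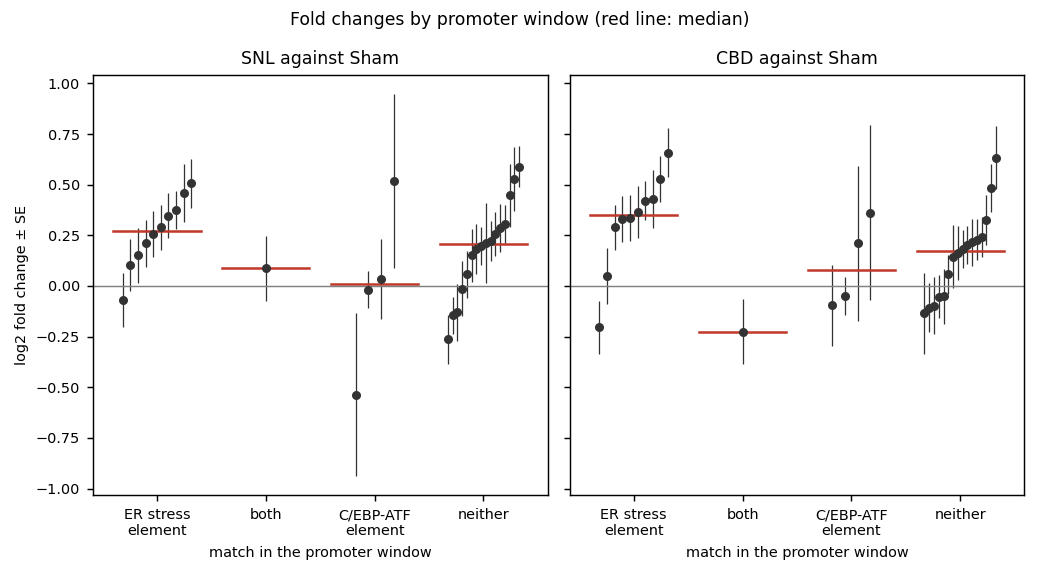
Log2 fold change with its SE for the 31 genes with a promoter window, split by the element found. The column of the ER stress element holds 10 genes by either form of it, 1 gene holds both kinds of element, 4 hold the C/EBP-ATF element and 16 hold neither. Red lines are medians. Nearly all genes of the first column lie above 0 in both comparisons, and those with neither element spread from below 0 to values as high.

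The wider machinery was followed in 101 further genes, of which 100 were matched by symbol or synonym and 99 tested. In SNL against Sham 60 of 99 were above 0 and the median was 0.04, and 9 were higher and 4 lower at an unadjusted p under 0.05, beside 5.83% and 7.96% of all genes. In CBD against SNL the median was -0.05, with 4 higher and 8 lower, beside 6.5% and 7.2% of all genes. In CBD against Sham the median was -0.01, with 12 higher and 9 lower, beside 7.41% and 8.87%. None of the 99 had an adjusted p under 0.05 by edgeR in any comparison.

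Other folding enzymes and cofactors were 12 of 17 above 0 in SNL against Sham (median 0.19), where 51.6% of all genes were. At an unadjusted p under 0.05, 4 were higher, where 5.83% of all genes were. Fkbp2, an ER prolyl isomerase, stood at 53.4 CPM ± 5.02 (SD, n = 3) in Sham, 73.2 ± 3.20 in SNL and 48.0 ± 10.8 in CBD, where it was lower than in SNL by -0.61 (SE 0.15). Prdx4, an ER peroxidase, differed by 0.55 (SE 0.19) between SNL and Sham. In CBD against Sham 10 of the 17 were above 0, where 50.1% of all genes were. At an unadjusted p under 0.05, 5 were higher, where 7.41% of all genes were. Among them were Fkbp14 at 0.55 (SE 0.15) and Erp44, which retains ERO1 in the secretory pathway, at 0.46 (SE 0.13). Among 16 translocon and signal peptidase genes 14 were above 0 in SNL against Sham (median 0.17), where 51.6% of all genes were. At an unadjusted p under 0.05, 3 of the 16 were higher, where 5.83% of all genes were. Spcs2 differed by 0.41 (SE 0.14) and Sec62 by 0.37 (SE 0.14).

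Further genes of degradation, glycoprotein folding and the eIF2 kinases were followed too. Of 20 degradation genes 0 had an unadjusted p under 0.05 in SNL against Sham, and Edem3, a mannosidase of this pathway, differed by 0.35 (SE 0.12) between CBD and SNL. All 6 glycoprotein folding genes and all 5 genes for eIF2 kinases and phosphatase missed that level in SNL against Sham. Among them Eif2ak2 (PKR), an eIF2 kinase that senses double-stranded RNA, was at 14.1, 13.0 and 16.1 CPM in Sham, 7.06, 9.41 and 7.65 in SNL, and 25.1, 7.12 and 9.15 in CBD. Every SNL library was below every Sham library, by -0.84 (SE 0.39), and CBD 1 stood far above the other CBD libraries. Creb3, a membrane-bound factor of the ATF6 kind, differed by 0.22 (SE 0.09) between SNL and Sham, and Mbtps1, the protease that first cuts ATF6, by -0.24 (SE 0.10). Atf6b, the paralog of Atf6, differed by -0.57 (SE 0.17) between CBD and Sham.

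Targets of ATF4 outside the list were split about evenly in SNL against Sham and were mostly below 0 in both comparisons with CBD. Of 20 tested in SNL against Sham, 9 were above 0 and 11 below (median -0.01). At an unadjusted p under 0.05, 1 was higher and 3 lower, beside 5.83% and 7.96% of all genes. In CBD against SNL 15 of the 20 were below 0 (median -0.12), with 1 higher and 2 lower, beside 6.5% and 7.2% of all genes. In CBD against Sham 14 were below 0 (median -0.17), with 2 higher and 4 lower, beside 7.41% and 8.87%. The 2 with the smallest p in SNL against Sham were both lower in SNL. Stc2, a secreted stanniocalcin, was lower by -1.05 (SE 0.23), and Cebpb, a C/EBP transcription factor, by -0.91 (SE 0.27). Cebpb was lower in CBD than in Sham by -1.54 (SE 0.28), and Ddit4, an inhibitor of mTORC1, by -1.05 (SE 0.21). The 2 with the smallest p in CBD against SNL went opposite ways, Ddit4 at -0.60 (SE 0.21) and Slc7a11 at 0.32 (SE 0.13). Slc7a11 was also higher in CBD than in Sham, by 0.55 (SE 0.13). Of 9 cell death genes 0 had an unadjusted p under 0.05 in SNL against Sham. Bax, a pore-forming protein of the mitochondrial death pathway, was lower in CBD than in SNL by -0.43 (SE 0.15).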

How the data were processed

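The authors deposited 1 table of expected counts per gene, 1 column a library, which is what RSEM gives when it shares reads among transcripts. The submitters' processing notes name RSEM and the build GRCm39, and its version, the aligner, the annotation and the filters were not given in the sources used here. Per the labels' protocols, TRIzol served for RNA and a SMARTER mRNA-seq kit for libraries. Expected counts were rounded to whole numbers. The filter filterByExpr kept 17967 genes, and TMM (trimmed mean of M-values) set the scaling. In R 4.3.3, edgeR 4.0.16 fitted all 9 libraries with group as the factor, leaving 6 residual degrees of freedom, and gave quasi-likelihood F tests. Benjamini-Hochberg adjustment ran over every tested gene. Each SE was taken as the log2 fold change over the root of F. CPM uses TMM-scaled library sizes.

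The genes, lists and tests were chosen with earlier results of these data known. Values in every library are given for the sensors, transcription factors, Hspa5 and Hsp90b1, and for the 6 genes with the smallest p in each comparison. Further lists name up to 2 genes with the smallest p each. Alternatives were DESeq2 (1.42.0) size factors and Wald test, limma voom (3.58.1) with sample weights, other filters, fits on 6 libraries, a replicate block, an adjusted p under 0.1, GC and length offsets (mgcv 1.9.3, for 98.2% of genes, from GENCODE M21), and libraries left out. The edgeR, DESeq2 and limma voom fits, and edgeR with size factors, block or offsets, were tested on simulated data of 9 libraries without the filter step. The filters, the fits on 6 libraries and those with libraries left out were not tested in this way. Promoter windows run 5′ to 3′: the bases after the start lay in a GENCODE transcript for 26 of 32 windows, and for 0 when reversed.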

Additional observations from a re-analysis of the deposited data

How the results depend on the processing

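The number of genes with an adjusted p under 0.05 over all 17967 was 0 in each comparison by edgeR, and it depended on the test. With no filter on low counts it was 253 for SNL against Sham, 1 for CBD against SNL and 56 for CBD against Sham. By the DESeq2 Wald test it was 363, 156 and 380, and by limma voom with sample weights 1, 1132 and 1051. At an adjusted p under 0.1 it was 2 for SNL against Sham. Without the libraries with Pmch above 10 CPM it was 1, 2 and 20, and on the 6 libraries of CBD and Sham it was 1. With 1 library left out it ran from 0 to 8, 0 to 2 and 0 to 17. Of the 35 genes, DESeq2 called 4, 0 and 5, limma voom 0, 2 and 7, and the fit with no filter 1, 0 and 1.

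The number of the 35 at an unadjusted p under 0.05 was 11 by limma voom and 2 with GC content and length offsets for CBD against SNL, and 7 without the Pmch libraries for SNL against Sham. It ran from 9 to 15, 2 to 6 and 8 to 13 with 1 library left out. The median over the 35 for SNL against Sham was 0.11 without the Pmch libraries. With 1 library left out it ran from 0.14 to 0.24, from -0.043 to 0.089 for CBD against SNL and from 0.17 to 0.24 for CBD against Sham.

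Among the named genes, Atf3, Atf4, Atf6 and Eif2ak3 changed sign in a comparison. With GC content and length offsets Atf4 was 0.10 in CBD against Sham and Eif2ak3 0.0090 in CBD against SNL, and without the Pmch libraries Atf6 was 0.10 in CBD against Sham and Eif2ak3 0.068 in CBD against SNL. With 1 library left out Atf3 ran from -0.53 to 0.20 in CBD against SNL and from -0.0051 to 0.61 in CBD against Sham. Atf6 ran from -0.28 to 0.092 in CBD against Sham. Eif2ak3 ran from -0.17 to 0.069 in SNL against Sham, -0.12 to 0.12 in CBD against SNL and -0.12 to 0.00030 in CBD against Sham. The causes were not tested.

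No pairing of the libraries by replicate number was visible: of 9 pairs with the same number 2 had deviations that correlated above 0.1, and 0 libraries correlated best with their own number. With 3 libraries a group, these correlations cannot decide whether libraries were paired. With the replicate number as a block, 0 genes passed in each comparison, and 11, 5 and 11 of the 35 had an unadjusted p under 0.05. Atf3 and Trib3 rest on few counts, so changes of their size were not detectable at this depth.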
